A study of Mus musculus with 18 samples.

Results

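The Ifi200 family and Aim2 are the mouse members of the PYHIN (HIN-200) family. The genes examined were Ifi203, Ifi204, Ifi205, Ifi206, Ifi207, Ifi209, Ifi211, Ifi213, Mndal and Aim2, 10 of the 25926 genes in the table. They were chosen from the family with their FPKM values in these same samples known, so their levels and folds are given as a description and without p-values. PYHIN proteins carry an N-terminal pyrin domain, a C-terminal HIN domain that binds DNA, or both. AIM2 binds double-stranded DNA in the cytosol and recruits the adaptor ASC (encoded by Pycard), which activates caspase-1 and leads to release of interleukin-1β and to cell death. Most other genes of the family are known in macrophages as interferon-stimulated genes, and the protein of Ifi204, p204, has been described as a DNA sensor that acts through STING.

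RNA was sequenced from bone marrow-derived macrophages (BMDMs) of C57BL/6 mice, grown for 7 days in 50 ng/mL M-CSF and then kept above renal tubular epithelial cells (TECs) from WT mice in a Transwell with 0.4 µm pores. The 3 groups held 6 samples each: NC (BMDMs given PBS, above untreated TECs), COM (BMDMs given PBS, above TECs that had received 100 µg/mL calcium oxalate monohydrate for 24 h) and COM+Met (TECs as in COM, BMDMs given 5 mM of an agent the labels call Met for 24 h). The labels do not give the age of the mice, how many mice gave cells, or whether the 6 samples of a group were separate cultures, so the spread between samples may be technical. COM against NC asks what crystal-exposed epithelium does to the macrophages, and COM+Met against COM asks what Met adds.

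Several libraries stood apart over the whole transcriptome, which touches every result below. Over 10751 genes, log2(FPKM + 1) correlated at 0.992 to 0.994 among COM-1, COM-2 and COM-3 and at 0.995 between COM-4 and COM-5, but at only 0.948 to 0.951 between these sets. COM-4 and COM-5 correlated at 0.977 to 0.982 with the COM+Met samples, closer than with the other samples of their own group. COM-6 correlated at 0.888 to 0.935 with the rest of COM. NC-5 and NC-6 correlated at 0.938 to 0.962 with NC-1 to NC-4, and the 6 COM+Met samples at 0.989 to 0.995 among themselves. The labels give no batch or date for these libraries. All 10 macrophage markers were measured at a mean of 1 FPKM or more in every group, so by group mean the markers of the labelled cell type were all present. Their summed level ranged from 10610 to 17060 FPKM. Most of this was Lyz2 (8531 to 14540 FPKM), so the sum says little of the other markers. C1qa was below 1 FPKM in NC-5, NC-6, COM-1 to COM-3 and COM-6.

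The whole family lies in a single stretch of chromosome 1. In the GENCODE M21 annotation of GRCm38, matched by Ensembl identifier, it runs from the start of Aim2 at 173350879 to the end of Ifi205 at 174031810, which is 0.681 Mb. This stretch holds 14 protein-coding genes, and Cadm3, an adhesion molecule gene listed at no more than 0.0974 FPKM in any sample, is the only one outside the family. The order along the chromosome is Aim2, Ifi206, Ifi214, Ifi213, Ifi209, Ifi208, Ifi207, Ifi204, Mndal, Ifi211, Ifi203, Ifi202b and Ifi205. Aim2, Ifi209 and Ifi208 are on the plus strand and the other genes on the minus strand. The annotated span of Mndal (173849126 to 173942491) overlaps those of Ifi211 and Ifi203 on the same strand.

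The promoters of these genes share a short motif, and the stretches that hold it are printed here because they show how alike the starts of these genes are and which of them lack it. RefSeq promoter sequences on GRCm38.p6, from 250 bases before to 50 bases after each RefSeq gene start, were found for 9 of the 10 genes. These starts can differ from the ends of the GENCODE spans given above. The window of Aim2 (173420354 to 173420653) lies inside its GENCODE span, away from the end at 173350879. Both windows of Mndal likewise lie inside its GENCODE span. Ifi204 was the gene without an entry. Both strands were searched for the core of the interferon-stimulated response element (ISRE, GAAANNGAAA), which interferon regulatory factors bind. Capitals mark the ISRE core in the last 150 bases of each promoter (100 before the start and 50 after it), read 5′ to 3′ on the strand of the gene, and the whole entry is given for Ifi205, where the core lies further upstream. Ifi214, a family gene outside the 10, is printed beside Ifi209 because their mature transcripts and promoters resemble each other.
Ifi206, chr1:173491269-173491418, minus strand: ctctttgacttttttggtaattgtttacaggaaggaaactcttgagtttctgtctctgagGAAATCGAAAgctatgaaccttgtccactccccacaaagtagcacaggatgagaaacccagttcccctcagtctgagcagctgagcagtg
Ifi213, chr1:173599223-173599372, minus strand: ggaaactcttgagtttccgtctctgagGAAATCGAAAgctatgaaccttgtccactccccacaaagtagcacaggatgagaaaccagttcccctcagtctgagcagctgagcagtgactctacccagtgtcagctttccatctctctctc
Ifi207, chr1:173741760-173741909, minus strand: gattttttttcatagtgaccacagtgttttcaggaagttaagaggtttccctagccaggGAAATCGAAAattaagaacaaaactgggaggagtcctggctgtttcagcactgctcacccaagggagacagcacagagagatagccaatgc
Mndal (second start), chr1:173880138-173880287, minus strand: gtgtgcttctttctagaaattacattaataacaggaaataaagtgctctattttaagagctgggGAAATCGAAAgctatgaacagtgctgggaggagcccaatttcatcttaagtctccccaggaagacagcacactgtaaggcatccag
Ifi203 (first start), chr1:173942443-173942592, minus strand: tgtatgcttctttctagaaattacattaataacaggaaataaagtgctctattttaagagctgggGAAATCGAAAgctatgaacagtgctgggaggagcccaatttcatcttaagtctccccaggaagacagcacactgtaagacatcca
Ifi211, chr1:173912997-173913146, minus strand: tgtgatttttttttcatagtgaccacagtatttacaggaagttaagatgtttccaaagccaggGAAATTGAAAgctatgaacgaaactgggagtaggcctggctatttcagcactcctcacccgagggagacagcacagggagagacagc
Ifi205, chr1:174031706-174032005, minus strand: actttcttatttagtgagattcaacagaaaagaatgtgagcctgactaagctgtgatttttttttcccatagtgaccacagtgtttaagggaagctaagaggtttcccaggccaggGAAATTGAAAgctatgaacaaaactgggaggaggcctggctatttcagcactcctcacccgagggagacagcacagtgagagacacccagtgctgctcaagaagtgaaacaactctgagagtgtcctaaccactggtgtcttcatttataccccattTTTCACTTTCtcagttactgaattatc
Ifi209, chr1:173630759-173630908, plus strand: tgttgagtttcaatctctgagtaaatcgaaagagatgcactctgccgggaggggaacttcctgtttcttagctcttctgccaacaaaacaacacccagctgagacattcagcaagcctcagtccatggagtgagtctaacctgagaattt
Ifi214, chr1:173535908-173536057, minus strand: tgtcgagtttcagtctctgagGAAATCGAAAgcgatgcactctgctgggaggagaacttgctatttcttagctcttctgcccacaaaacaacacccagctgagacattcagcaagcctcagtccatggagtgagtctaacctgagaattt
Aim2, chr1:173420504-173420653, plus strand: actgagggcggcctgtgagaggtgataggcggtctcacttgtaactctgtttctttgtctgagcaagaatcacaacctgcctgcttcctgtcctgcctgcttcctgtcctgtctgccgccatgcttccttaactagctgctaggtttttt

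The ISRE core was present in the promoters of 7 of the 9 genes (Ifi203, Ifi205, Ifi206, Ifi207, Ifi211, Ifi213 and Mndal), against 3.99% of all 27025 genes with a promoter entry. Counted by entry, 8 of 11 promoters of these genes held it, against 3.44% of all 32851. Several of these promoters resemble each other and both windows of Mndal overlap, so the entries are not independent occurrences of the core. The same 10 letters, GAAATCGAAA, stood at position -40 in Ifi206, -73 in Ifi213, -41 in Ifi207, -36 in the second Mndal entry and -35 in the first Ifi203 entry, counted from the gene start. These exact letters occur in 16 of the 32851 promoters, or 0.0487%. They were read off the promoters of this family, and the 16 include the entries just named and those of Ifi208 and Ifi214. The share is therefore not an independent background rate. Ifi211 at -37 and Ifi205 at -134 held GAAATTGAAA, which is the substitution C6T counted from 1 at the 5′ end of the shared letters. Ifi205 had a second core on the opposite strand at position 24, and the first Mndal entry had one on the opposite strand at -54.

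Ifi209 and Aim2 had no ISRE core in the window searched, and for Aim2 the start of its GENCODE span was not searched. In Ifi209 the stretch at -79 differed from the shared letters by the single substitution G1T, whereas Ifi214 held the shared letters at the same position. In Aim2 the stretch nearest to the shared letters was GACAAAGAAA, at -51 on the opposite strand, and needed 3 substitutions to match them. Some of these fall at the NN of the core, where any base is allowed, so they do not measure distance from the core. Outside the NN this stretch differed from the core by a single base, as did that of Ifi209. The γ-interferon-activated site TTCNNNGAA was found in 0 of the 9 genes, against 9.55% of all genes. A loose NF-κB pattern, GGGNNNNNCC, was found in 3 of the 9 (Ifi203, Ifi209 and Mndal), against 53.5% of all genes. The absence of letters from a window of this length says nothing of the factor.

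**Figure D1:**
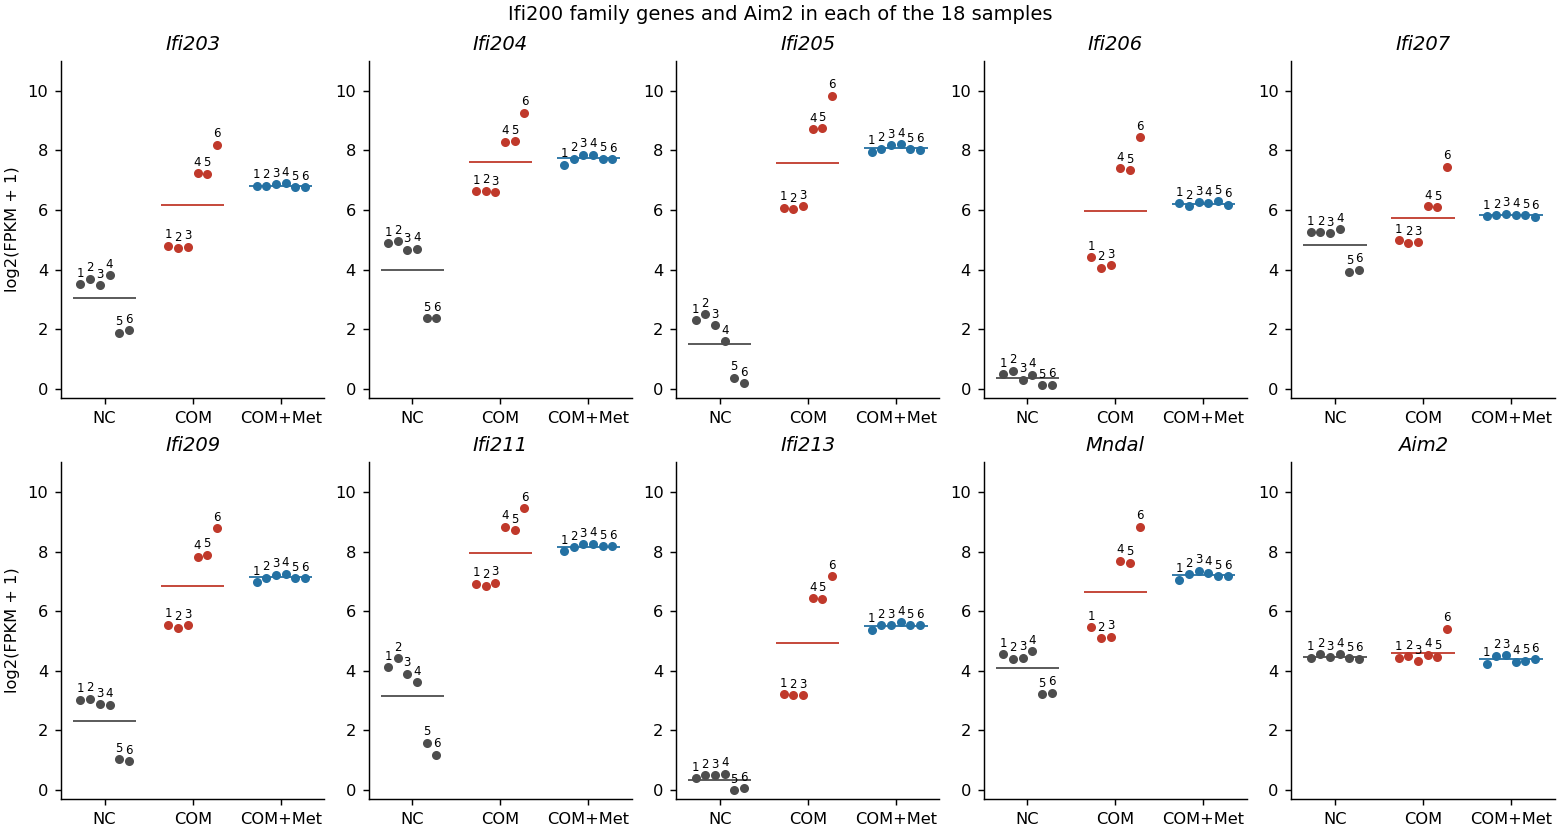
Level of each gene in each of the 18 samples, as log2(FPKM + 1), where numbers are replicate numbers, colours are the groups and bars are group means. In 9 of the 10 genes COM-1 to COM-3 lie below and COM-4 to COM-6 above all COM+Met samples, while Aim2 is level except for COM-6.

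Ifi207 led the family in untreated co-culture by median level. In NC, FPKM (mapped fragments scaled to transcript length and library total, which allows levels of different genes to be compared) summed over the 10 genes was 53.3 at the lowest, 141 at the median and 155 at the highest. Ifi207 was the most abundant in NC-1 to NC-4, and Aim2 in NC-5 and NC-6. Ranked by median FPKM, the order in NC was Ifi207 (36.9), Ifi204 (24.8), Aim2 (20.9), Mndal (20.4), Ifi211 (12.6), Ifi203 (10.3), Ifi209 (6.33), Ifi205 (2.72), Ifi213 (0.370) and Ifi206 (0.315). The ranges of every pair of neighbours in this order overlapped, although Ifi207 was above Ifi204, Ifi203 above Ifi209, Ifi209 above Ifi205 and Ifi205 above Ifi213 in all 6 samples.

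In COM+Met the order was Ifi211 (289), Ifi205 (265), Ifi204 (211), Mndal (147), Ifi209 (138), Ifi203 (112), Ifi206 (74.2), Ifi207 (55.9), Ifi213 (45.0) and Aim2 (19.5), with the same quantity, median FPKM. Every gene in that order was above the next in 6 of 6 samples, and only Ifi211 and Ifi205, and Mndal and Ifi209, had ranges that overlapped. The order of the medians in COM began in the same way with Ifi211 (272), Ifi205 (245) and Ifi204 (206) and ended with Aim2 (21.3), but all neighbours there overlapped. Ifi211 was the most abundant in 10 of the 12 samples of COM and COM+Met and Ifi205 in COM-5 and COM-6.

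The make-up of the summed level moved accordingly. Ifi207 held a median of 26.7% of the summed FPKM in NC, 5.23% in COM and 4.09% in COM+Met. Aim2 held 15.4% in NC, with up to 38.4% in NC-5 and NC-6, then 2.57% in COM and 1.46% in COM+Met. Ifi205 went from 1.94% to 17.3% and 19.8%, and Ifi211 from 8.98% to 23.2% and 20.9%. The summed level was 454, 1282 and 4125 FPKM in COM and 1245, 1350 and 1457 FPKM in COM+Met (lowest, median and highest of 6).

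**Figure D2:**
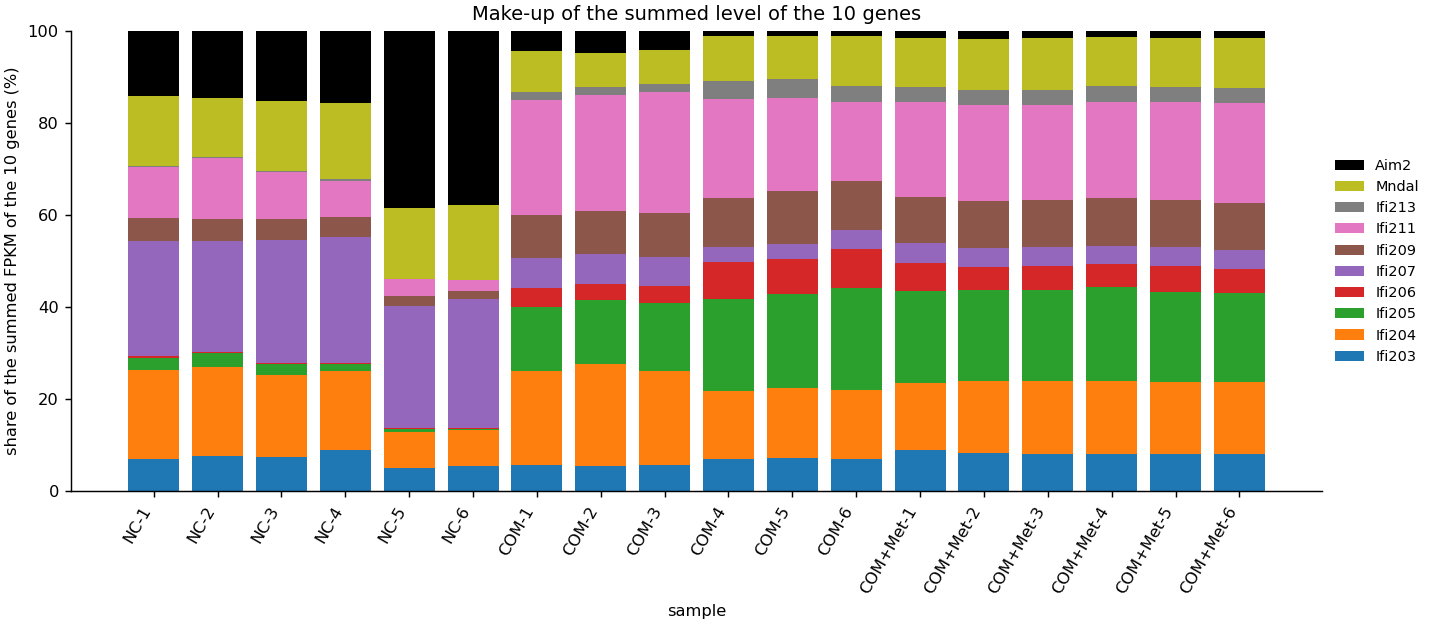
Share of each gene in the summed FPKM of the 10 genes, in percent, for each sample. In NC the largest median shares are those of Ifi207 (26.7%) and Ifi204 (17.6%), and Aim2 takes up to 38.4% in NC-5 and NC-6, while in COM and COM+Met Ifi211, Ifi205 and Ifi204 take the largest.

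Ifi205, Ifi206 and Ifi213 had the lowest median levels of the family in NC. Ifi205, a nuclear HIN-200 protein gene, ranged in NC from 0.148 to 4.66 FPKM with a median of 2.72, in COM from 64.0 to 913 with a median of 245, and in COM+Met from 248 to 296 with a median of 265. Within COM it was at 66.7, 64.0 and 69.1 FPKM in COM-1 to COM-3, at 420 and 426 in COM-4 and COM-5 and at 913 in COM-6. Its log2 fold change on log2(FPKM + 1), the scale of every fold change below, was 6.07 (SE 0.71) for COM minus NC and 6.56 (SE 0.37) for COM+Met minus NC.

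Ifi206 and Ifi213 were close to undetected in NC. Ifi206 was between 0.0892 and 0.519 FPKM in NC, with a median of 0.315. It was at 20.4, 15.7, 16.8, 168, 161 and 350 FPKM across COM-1 to COM-6, and between 68.9 and 77.4 in COM+Met with a median of 74.2. No NC sample reached the lowest COM sample. Ifi213 was at 0.322, 0.417, 0.419, 0.453, 0 and 0.0462 FPKM across NC-1 to NC-6. It was at 8.26, 8.05, 8.04, 85.1, 84.7 and 143 FPKM across COM-1 to COM-6, and between 40.8 and 48.5 in COM+Met. The fold changes for COM minus NC were 5.62 (SE 0.72) for Ifi206 and 4.60 (SE 0.70) for Ifi213, and for COM+Met minus NC 5.86 (SE 0.08) and 5.18 (SE 0.10). The pseudocount of 1 holds these values down, and with a pseudocount of 0.1 the values for COM minus NC were 7.44 and 6.53.

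Ifi211, Ifi209 and Ifi204 were measured at moderate levels in NC and above every NC sample in COM. Ifi211 was at 1.28, 12.6 and 20.6 FPKM in NC (lowest, median and highest), 115, 272 and 703 in COM, and 258, 289 and 305 in COM+Met. Ifi209 was at 7.19, 7.39, 6.37, 6.29, 1.05 and 0.947 FPKM across NC-1 to NC-6, at 45.6, 42.6, 45.5, 227, 237 and 441 across COM-1 to COM-6, and between 125 and 152 in COM+Met. Its groups NC and COM did not overlap. The promoter window of Ifi209 held no ISRE core, while that of Ifi207, which was not called against NC, held one. How the core relates to the levels was not tested. Ifi204 was at 4.16, 24.8 and 29.9 FPKM in NC, 96.1, 206 and 613 in COM, and 182, 211 and 232 in COM+Met. For COM minus NC the fold changes were 4.82 (SE 0.66) for Ifi211, 4.53 (SE 0.65) for Ifi209 and 3.64 (SE 0.62) for Ifi204. For COM+Met minus NC they were 5.03 (SE 0.51), 4.82 (SE 0.37) and 3.74 (SE 0.46).

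Ifi203 and Mndal, whose annotated spans overlap, followed the same order of samples. Ifi203 was at 2.70, 10.3 and 13.0 FPKM in NC, 25.4, 87.7 and 293 in COM and 107, 112 and 119 in COM+Met. Mndal, which carries a HIN domain and is related to human MNDA, was at 22.5, 20.1, 20.8, 24.2, 8.27 and 8.64 FPKM across NC-1 to NC-6, at 43.3, 33.3, 34.4, 205, 197 and 454 across COM-1 to COM-6, and between 133 and 164 in COM+Met. COM-1 to COM-3 lay little above the NC samples for Mndal. The fold changes for COM minus NC were 3.10 (SE 0.65) for Ifi203 and 2.55 (SE 0.63) for Mndal, and with limma's sample weights that of Mndal was 0.92 and no longer called. For COM+Met minus NC they were 3.76 (SE 0.32) and 3.13 (SE 0.25).

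Ifi207 and Aim2 were not called against NC. Ifi207, the most abundant family gene in NC, was at 37.1, 37.3, 36.6, 39.9, 14.2 and 15.1 FPKM across NC-1 to NC-6 and at 30.7, 28.9, 29.1, 68.7, 67.4 and 174.5 across COM-1 to COM-6. COM-1 to COM-3 were therefore below NC-1 to NC-4 and above NC-5 and NC-6. COM+Met lay between 53.9 and 58.1, above every NC sample. The fold change of Ifi207 was 0.91 (SE 0.44) for COM minus NC and 0.99 (SE 0.25) for COM+Met minus NC, neither of which was called. Its sign for COM minus NC turned with sample weights (-0.18), and without COM-1 to COM-3 it was 1.72 and called. Its value in COM+Met against NC was just under 2-fold and was called in 8 of 23 alternatives, which were the fits without any single one of NC-1 to NC-4 (1.07 to 1.09) or without COM+Met-6 (1.00), a pseudocount of 0.1 (1.02), and scaling by median-of-ratios (1.28) or quantiles (1.12). Without NC-5 and NC-6 it was 0.56.

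Aim2, the inflammasome sensor, was at 20.8, 22.4, 20.9, 22.5, 20.4 and 20.3 FPKM across NC-1 to NC-6, at 20.6, 21.4, 19.1, 22.4, 21.2 and 41.7 across COM-1 to COM-6, and between 17.8 and 22.0 in COM+Met with a median of 19.5. Apart from COM-6, the ranges of the 3 groups overlapped. The fold change of Aim2 was 0.14 (SE 0.16) for COM minus NC, and it was -0.02 without COM-6. For COM+Met minus NC it was -0.09 (SE 0.06), and scaling by median-of-ratios turned it to 0.19 and quantile normalisation to 0.11.

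**Figure D3:**
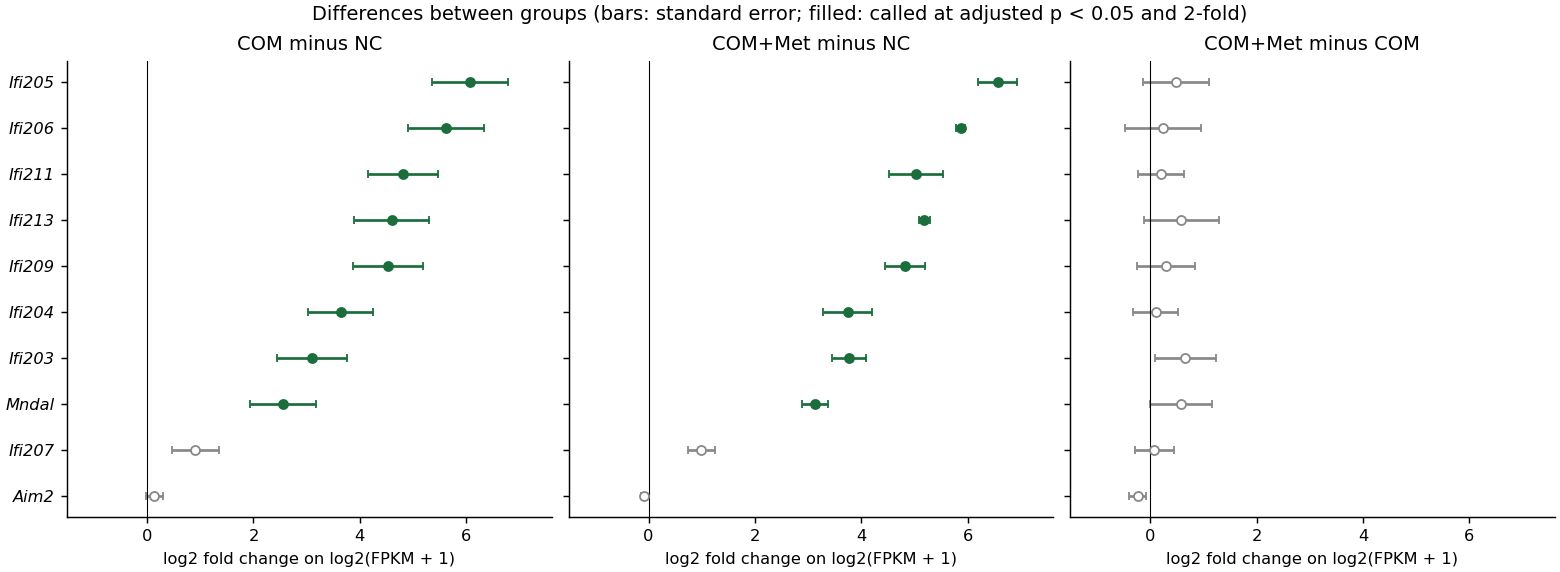
Log2 fold change of each gene on log2(FPKM + 1) in the 3 comparisons, with standard errors from limma, where filled points passed an adjusted p below 0.05 and a 2-fold change. Values run from 0.14 (Aim2) to 6.07 (Ifi205) for COM minus NC and from -0.23 to 0.66 for COM+Met minus COM.

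Counted together, 8 of the 10 genes were called higher in COM than in NC (limma with Benjamini-Hochberg adjustment over 10900 genes, adjusted p below 0.05 and at least 2-fold), where 5.99% of all genes were called higher and 11.7% lower. The same 8 had all 6 COM samples above all 6 NC samples, against 8.6% of all genes. The median fold change of the 10 genes was 4.08 and that of all genes was -0.27. This contrast was among those that chose the genes, so nothing is read from the counts. The 8 were called with NC-5 and NC-6 left out, and also with COM-4 to COM-6 left out, where the values ranged from 1.15 (Mndal) to 4.56 (Ifi205). With COM-1 to COM-3 left out they ranged from 3.96 (Mndal) to 7.58 (Ifi205).

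The median of all genes depends on the scaling. Median-of-ratios size factors brought it from -0.27 to -0.0013 for COM minus NC, and the share of calls that were higher from 33.9% to 51.3% (48.2% with quantile normalisation). For COM+Met minus NC that share went from 29.4% to 45.7% and 44.8%. Relative to the median of all genes, the fold changes of the family against NC are larger by about that shift.

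The COM+Met samples lay close together. Of the 10 genes, COM+Met against NC called 8 higher, against 5.66% of 10786 genes higher and 13.6% lower, and 9 (all but Aim2) had every COM+Met sample above every NC sample, against 14.1% of genes. The median fold change was 4.29, beside -0.26 over all genes. This contrast too was among those that chose the genes, and Ifi206 and Ifi213 passed the filter against NC only through the treated groups, so nothing is read from the counts. The comparison shares its NC samples with COM against NC, so the values of the genes in both are given side by side and no agreement between them is counted. The coefficient of variation of a gene over the 6 COM+Met samples was between 2.61% (Ifi207) and 8.65% (Ifi204), and over the 6 COM samples between 35.1% (Aim2) and 109% (Ifi206).

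COM+Met against COM gave no call among the 10 genes in the limma fit, and 0 of them had an unadjusted p below 0.05, where 0.608% of 10364 genes were called higher and 1.61% lower. No gene had groups that did not overlap, against 5.83% of genes with every COM+Met sample higher and 5.34% with every one lower. The fold changes of 9 genes were above 0, from 0.08 (Ifi207, SE 0.37) to 0.66 (Ifi203, SE 0.57), and that of Aim2 was -0.23 (SE 0.16). The median was 0.27, against 0.003 over all genes. On the linear scale the sign was the other way: the mean FPKM of 9 genes (all but Ifi203) was lower in COM+Met, with a ratio between 0.603 (Ifi206) and 0.920 (Mndal) and 1.01 for Ifi203. The standard errors ran from 0.16 (Aim2) to 0.72 (Ifi206).

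The result of this comparison rested on which COM libraries entered it. Without COM-4 to COM-6, 8 genes (all but Ifi207 and Aim2) were called higher in COM+Met, from 1.10 (Ifi204) to 2.33 (Ifi213). Without COM-1 to COM-3, the fold changes of all 10 were below 0, and Ifi205 (-1.02), Ifi206 (-1.51), Ifi209 (-1.04) and Ifi213 (-1.16) were called lower. The 6 COM+Met samples thus lay between the COM libraries: COM-1 to COM-3 were below and COM-4 to COM-6 above every COM+Met sample in 9 of the 10 genes, an order held by 203 of 10364 genes, or 1.96%. COM-6 was the highest of all 18 samples in 10 of 10 genes, as in 13.8% of all genes, and NC-5 and NC-6 were the lowest of NC in 10 of 10, as in 27.5%. The labels name no difference between these libraries.

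**Figure D4:**
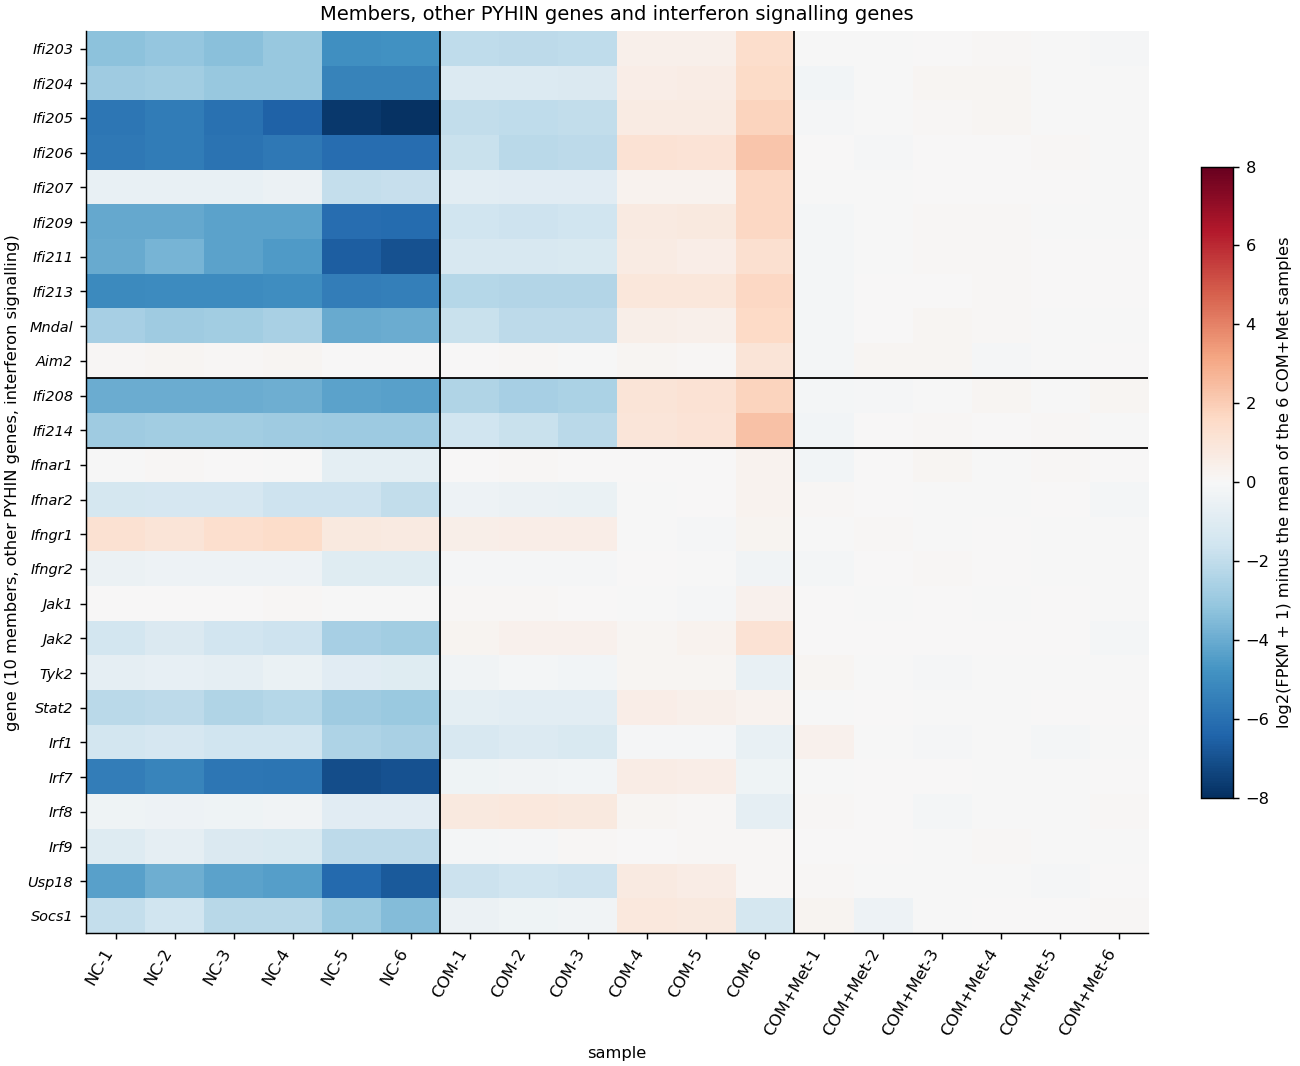
Level of the 10 genes, 2 further PYHIN genes and 14 interferon signalling genes in each sample, as log2(FPKM + 1) minus the mean of the 6 COM+Met samples (red higher, blue lower, same scale for all rows). Aim2 stands out from its COM+Met mean only in COM-6 (1.04), while the other family genes are below theirs in COM-1 to COM-3 and above in COM-4 to COM-6.

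Over the 18 samples the 9 genes other than Aim2 varied together within groups. After removal of the group means, the Pearson correlations of their 36 pairs lay between 0.711 and 0.993 with a median of 0.94, and those of the 9 pairs with Aim2 between 0.515 and 0.757 with a median of 0.64. Without that centring the pairs with Aim2 lay between 0.21 and 0.579. These are descriptions over libraries that share the split of COM and NC described above, and COM-6 alone sets Aim2 apart from its own level.

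The genes outside the family with the most similar pattern over the 18 samples were, by mean correlation with the 10 genes after centring, Ddx58 (0.926), Slfn8 (0.925), Ifih1 (0.923), Zcchc2 (0.921) and Trim30a (0.921), out of 10751 genes. Ddx58 and Ifih1 encode the cytosolic RNA sensors RIG-I and MDA5. The lowest correlation of each of these 5 was with Aim2, between 0.652 and 0.725. Without centring the 5 were Samd9l (0.907), Eif2ak2 (0.902), which encodes the RNA-dependent kinase PKR, Slfn8 (0.901), Zcchc2 (0.901) and Arid5b (0.898).

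Of the other PYHIN genes, 3 were in the table. Ifi208 was between 0 and 0.353 FPKM in NC, at 2.83, 2.28, 2.54, 41.9, 43.9 and 70.1 across COM-1 to COM-6 and between 17.7 and 21.8 in COM+Met. Ifi214 was at no more than 0.106 FPKM in NC, between 0.705 and 36.7 in COM and between 5.43 and 7.17 in COM+Met. Both passed the filter only through COM, where they were high, so their fold changes for COM minus NC, 3.48 (SE 0.77) and 2.65 (SE 0.68), are given without a test. Both promoters held the shared 10 letters, at -58 and -79. Ifi202b was listed at no more than 0.0840 FPKM in any sample and was not tested. None of the 5 protein-coding genes on either side of the family reached the filter, with Olfr433, an olfactory receptor gene next to Ifi205, the highest at up to 0.172 FPKM in NC, 1.42 in COM and 1.60 in COM+Met.

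The interferon signalling genes transmit the signal that many family genes respond to. Of the 15 that were tested, 9 rose and 0 fell in COM against NC, where 5.99% of all genes were called higher and 11.7% lower. The list median was 1.39, beside -0.27 over all genes. Irf7, the interferon-induced regulatory factor, was between 3.29 and 13.7 FPKM in NC and between 449 and 854 in COM, a fold change of 6.05 (SE 0.32, limma adjusted p = 3.62e-08). Usp18, a negative regulator of the interferon receptor, rose by 4.38 (SE 0.60, limma adjusted p = 7.28e-05). Stat2, a transcription factor of type I interferon signalling, was at 52.2, 51.3, 50.5, 131, 121 and 112 FPKM across COM-1 to COM-6 and between 88.2 and 94.2 in COM+Met. Like the family genes it had COM-1 to COM-3 below and COM-4 to COM-6 above every COM+Met sample.

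Other rises of this list in COM were Jak2 (2.29), Stat2 (2.26), Socs1 (2.26), Irf9 (1.40), Ifnar2 (1.39) and Irf1 (1.13), and that of Irf1 was not called in 5 of 25 alternatives, which were the fits without COM-4 to COM-6 (0.66), without NC-5 (0.999), without NC-6 (0.98), without both of these (0.78) and with sample weights (0.43). Irf7 did not share the order of the family within COM, being at 449 FPKM in COM-1 and 451 in COM-6. Neither interferon gene passed the filter. Ifnb1, which encodes interferon-β, was at most 0.194 FPKM in NC, at 0.0865, 0.184, 0, 0.809, 0.835 and 0.760 across COM-1 to COM-6 and between 0.195 and 0.653 in COM+Met. Ifng, which encodes interferon-γ, was listed at 0 in 16 of the 18 samples, with at most 0.0622 FPKM. Ifnar1, a subunit of the type I receptor, had a fold change of 0.35 (limma adjusted p = 0.0893) in COM against NC. The value of Ifngr1 was -0.81 (limma adjusted p = 0.00135), under 2-fold, with every COM sample (22.3 to 35.4 FPKM) below every NC sample (38.9 to 65.9).

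COM+Met against COM called 0 of the 15 in this list, where 0.608% of all genes were called higher and 1.61% lower. The smallest limma adjusted p was 0.0452, for Irf1 (0.72, SE 0.22), which was under 2-fold. At an unadjusted p below 0.05, 3 of the 15 passed. Against NC, COM+Met had 9 rises and 1 fall, where 5.66% of all genes were called higher and 13.6% lower. The fall was that of Ifngr1 (-1.09, SE 0.12, limma adjusted p = 2.27e-06), a subunit of the interferon-γ receptor. It was not called with median-of-ratios size factors (-0.80), quantile normalisation (-0.95) or a pseudocount of 5 (-0.98).

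The inflammasome list moved in both directions. It holds Pycard and Casp1, through which AIM2 acts, and also genes of other sensors such as Nlrp3, Mefv and Zbp1. Of its 14 genes, 6 rose and 2 fell in COM against NC, where 5.99% of all genes were called higher and 11.7% lower. The list median was 0.72, beside -0.27 over all genes. The rises were Zbp1 (3.88), a nucleic acid sensor, Il1b (3.55), Mefv (3.20), which encodes pyrin, Casp4 (1.90), Casp1 (1.43) and Nlrp3 (1.00). Casp1, the protease that AIM2 activates through ASC, was between 30.7 and 36.9 FPKM in NC, at 54.8, 59.1, 50.7, 136, 135 and 184 across COM-1 to COM-6 and between 113 and 136 in COM+Met (COM minus NC, SE 0.30, limma adjusted p = 0.00162). Its rise was not called without COM-4 to COM-6 (0.71) or with sample weights (0.76). That of Nlrp3 was not called in 10 of 25 alternatives, among them the fits without COM-2, COM-4, COM-6, NC-5 or NC-6 singly (0.78 to 0.997) and without NC-5 and NC-6 together (0.46). Pycard, the adaptor ASC, fell by 1.06 (SE 0.15, limma adjusted p = 7.87e-05), from 20.3 to 31.4 FPKM in NC to 7.81 to 12.7 in COM. Il18 fell by 1.11 (SE 0.22). The fall of Pycard was not called in 9 of 25 alternatives (-0.994 to -0.769), among them those without COM-6, NC-5 or NC-6 singly, and that of Il18 in 5 of 25 (-0.997 to -0.724), among them that without COM-2. Both lost it with median-of-ratios size factors, at -0.77 and -0.84. Casp8 had 0.21 and was not called.

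Il1b was the single gene of the 3 lists that COM+Met against COM called. It was at 455, 609, 592, 573, 524 and 455 FPKM across COM-1 to COM-6 and between 158 and 184 in COM+Met, and fell by 1.64 (SE 0.10, limma adjusted p = 5.61e-06). All 6 COM+Met samples were below all 6 COM samples, and within COM its level did not separate COM-1 to COM-3 from COM-4 to COM-6 as the family genes did. In 1 fit of all 18 samples the adjusted p was 0.104. In the inflammasome list 0 of 14 genes were called higher and 1 lower, where 0.608% of all genes were called higher and 1.61% lower. At an unadjusted p below 0.05, 7 of the 14 passed. Under 2-fold, the limma adjusted p was below 0.05 for Nlrc4 (-0.38, 0.0105), Mefv (-0.36, 0.0194) and Ninj1 (0.58, 0.0293). Against NC, COM+Met had 6 rises and 2 falls in this list, where 5.66% of all genes were called higher and 13.6% lower. The falls, of Pycard and Il18, were not called in 7 and 3 of 23 alternatives. Ninj1, the mediator of membrane rupture, rose there (1.48, limma adjusted p = 0.000157), and the rise of Il1b (1.91, limma adjusted p = 0.0455) was not called in 13 of 23 alternatives. These were the fits without NC-4, NC-5, NC-6 or any single COM+Met sample, without NC-5 and NC-6 together (0.55), with no filter, with equal sums and with sample weights (0.70).

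In the list of STING and cytosolic DNA sensing, 1 of 13 genes rose and 3 fell in COM against NC. Over all genes 5.99% were called higher and 11.7% lower. The list median was -0.36, near the -0.27 of all genes. It was -0.063 with median-of-ratios size factors and -0.151 with quantile normalisation. Trex1, the exonuclease that degrades cytosolic DNA, rose by 2.22 (SE 0.20, limma adjusted p = 2.56e-06), from 19.4 to 41.3 FPKM in NC to 120 to 187 in COM. Enpp1, which hydrolyses the cGAMP messenger, was between 2.27 and 4.77 FPKM in NC and at most 0.632 in COM. It is among the 3 falls counted, but it passed the filter only through NC, where it was high. Its fold change, -1.73 (SE 0.15), is therefore given without a test, and with a pseudocount of 5 it was -0.665 and not called. The RNase H2 subunit genes Rnaseh2b and Rnaseh2c fell by 1.00 and 1.10. The fall of Rnaseh2b was not called in 11 of 25 alternatives (-0.985 to -0.709) and that of Rnaseh2c in 14 of 25. Rnaseh2c was at 1.21 FPKM in COM-6 and between 9.78 and 14.9 in the other COM samples, and without COM-6 its value was -0.66 and not called. Its call was also lost without COM-4, NC-2, NC-3, NC-4 or NC-6, and that of Rnaseh2b without COM-1, COM-4, COM-5, NC-5 or NC-6. The sensor Cgas (0.29, limma adjusted p = 0.0526), Tmem173, which encodes STING (-0.53, limma adjusted p = 0.0211), and Tbk1 (0.57, limma adjusted p = 0.00149) did not reach 2-fold. COM+Met against COM called 0 of 12, where 0.608% of all genes were called higher and 1.61% lower. At an unadjusted p below 0.05, 2 of the 12 passed. Against NC, COM+Met had 1 rise (Trex1) and 2 falls (Enpp1 and Rnaseh2b) among 14 genes, where 5.66% of all genes were called higher and 13.6% lower. The list median was -0.16, beside -0.26 over all genes, and nothing is read from these counts. The fall of Rnaseh2b was not called in 5 of 23 alternatives. Enpp1 again passed the filter only through NC, and with a pseudocount of 5 its value was -0.687 and not called.

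**Figure D5:**
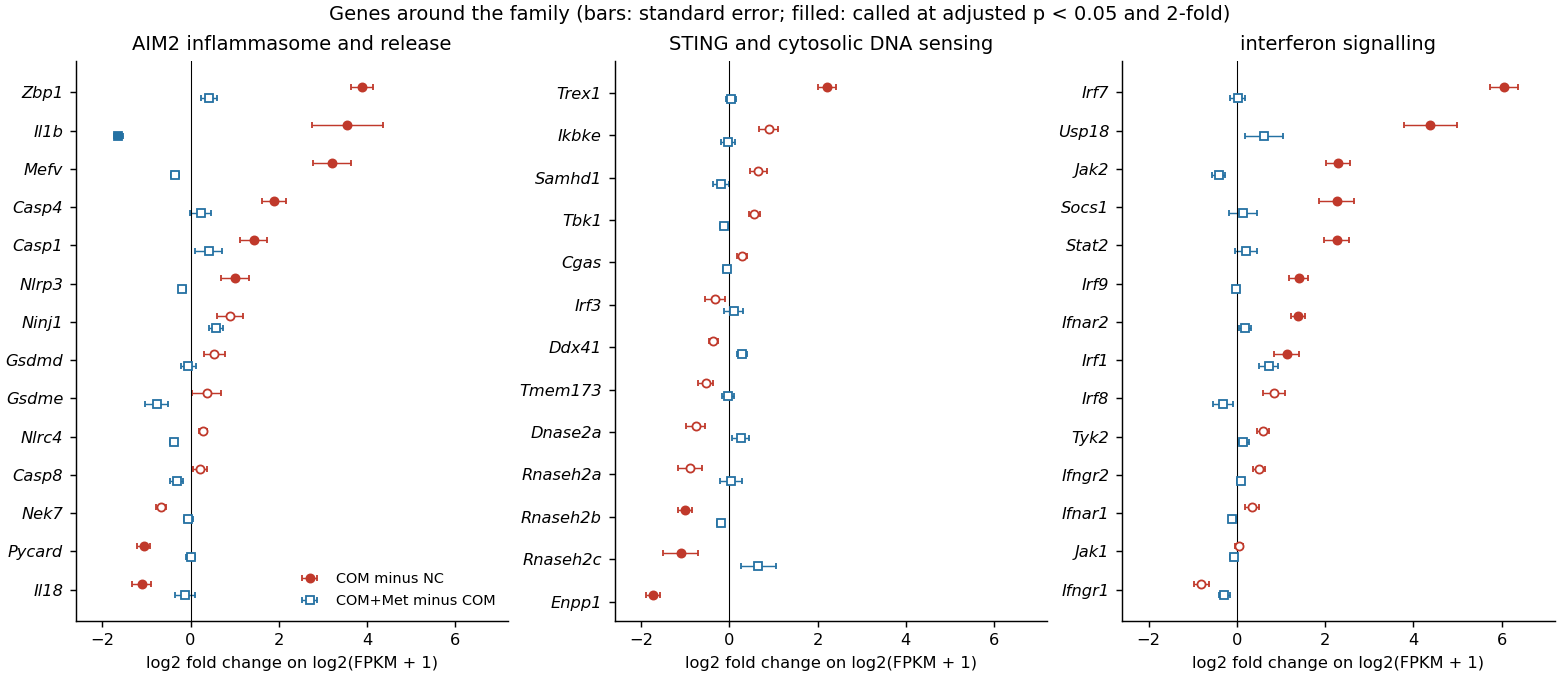
Log2 fold changes on log2(FPKM + 1) of the genes in the 3 lists for COM minus NC (red circles) and COM+Met minus COM (blue squares), with limma standard errors, where filled symbols passed an adjusted p below 0.05 and a 2-fold change. Irf7 (6.05) is furthest to the right, and Il1b (-1.64) is the only filled blue square.

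Markers of other cells moved with the groups and within COM. Fewer cells of a type and less RNA per cell cannot be told apart in these bulk samples. Of 10 neutrophil markers the summed level was 535 to 1017 FPKM in NC, 170 to 552 in COM and 74.0 to 137 in COM+Met. S100a8, a neutrophil and monocyte gene, was at 298, 276, 301, 51.9, 56.4 and 28.4 FPKM across COM-1 to COM-6, the reverse of the order in the family genes. Ngp had this reverse order too. Mmp8 was at 229, 211, 203, 108, 105 and 197 FPKM across COM-1 to COM-6. S100a9 was at 12.15, 17.8, 14.1, 1.34, 2.38 and 2.79. Both had COM-1 to COM-3 all above COM-4 to COM-6, but COM-6 was not their lowest sample. Among the markers at a mean of 1 FPKM or more in COM, only Camp lacked this split. Camp was higher in COM-4 (8.63) than in COM-2 (8.61). The 7 dendritic cell markers summed to 2.51 to 27.2 FPKM in NC, 63.9 to 225 in COM and 38.7 to 76.2 in COM+Met. Most of this was Ccr7, the migration receptor, at 195, 214, 199, 61.5, 64.6 and 61.2 FPKM across COM-1 to COM-6. The 10 tubular epithelial markers summed to 10.8 to 18.2 FPKM in NC, 0.468 to 1.35 in COM and at most 0.302 in COM+Met, with Cdh1 the only one at a mean of 1 FPKM or more in NC, and 3, 5 and 6 of them listed at 0 throughout these groups. The 6 stromal markers summed to 14.4 to 60.2, 4.61 to 36.6 and 2.32 to 7.33 FPKM. The 5 B cell markers summed to at most 0.758 FPKM and the 5 of 6 T and NK cell markers in the table to at most 1.64. The part of these cells in the levels of the family genes was not tested.

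Sequence shared within the family limits how well its members can be separated. In GENCODE M21 transcripts, 72.8% of the 50-base windows of Ifi211 also occurred in another family gene, most often Ifi205, and 56.9% of its 100-base windows. The share of 50-base windows was 33.4% for Ifi209, all of it with Ifi214, 19.1% for Ifi204, 18.6% for Ifi205, 17.3% for Mndal, 15.8% for Ifi206, 15.6% for Ifi213, 4.46% for Ifi207, 3.87% for Ifi203 and 0% for Aim2. How reads that match more than 1 gene were assigned is not given in the sources used here, so the levels of Ifi211 and Ifi209 in particular are uncertain. Aim2, with no shared window, and Ifi207 and Ifi203, with few, are free of most of that uncertainty.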

How the data were processed

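The authors deposited FPKM values for 18 BMDM samples, per the labels 6 each of NC, COM and COM+Met. All 18 sample columns were used and 0 were left out. The submitters' processing notes list Bowtie 0.12.2, mm8 and mm9 without a role for any of them. How reads were counted, on which annotation, and what was done with reads shared between genes is not given in the sources used here. FPKM does not give the read depth, which is therefore unknown, and no counting interval could be stated. Because FPKM is scaled to each sample's total, changes in abundant genes shift all other values. The summed FPKM of a sample was between 380731 and 449186.

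Differences were fitted as log2(FPKM + 1) with limma 3.58.1 (lmFit, eBayes with trend) in R 4.3.3, for 3 pairs of groups of 6. Only genes averaging 1 FPKM or more in a pair entered, and Benjamini-Hochberg adjustment covered all of them. A call needed an adjusted p below 0.05 and 2-fold. The script was tested on simulated data. All 10 genes passed this filter in each comparison, some only through the treated groups. Positions came from GENCODE M21 and promoters from RefSeq, both on GRCm38, which the submitters' notes do not name. Python 3.11.15 with matplotlib 3.10.9, numpy 2.4.6 and pandas 2.3.3 served for summaries and plots. For a table without counts a count model was not used.

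The genes of the family, the 4 lists of other PYHIN, inflammasome, STING and interferon signalling genes, and the libraries left out together were chosen with earlier results of these data known. The text names all 10 family genes, the genes of each list called in any comparison and its first 3, and 5 genes most correlated with the family on each scale. Genes added to these for their order within COM, their level or their adjusted p were chosen after their values were seen. Samples with the same replicate number did not deviate together from their group means (correlations from -0.222 to 0.057, 0 of 6 above 0.1 in each comparison). Alternatives tried were a pseudocount of 0.1 or 5, a filter of 5 FPKM or none, equal sums, median-of-ratios or quantile scaling, a block on the replicate number, a joint fit of 18 samples, limma sample weights, and samples left out singly or together. In the list of interferon signalling genes, 1 gene is counted but not reported here by itself.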

Additional observations from a re-analysis of the deposited data

Results flagged for a closer look

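Each group of 6 samples was examined for a highest or lowest value set off from the others by a larger share of the range than Dixon's 95% critical value for 6 samples, over the 10 genes in 3 groups. Ifi207 in COM-6, at 174.5 FPKM, was such a value, with 0.727 of the range of COM between it and the next sample. Aim2 in COM-6, at 41.7 FPKM, was the other, with 0.855. These are 2 of 30 groups, and chance flags about 1 in 20 groups. COM-6 was also the highest of all 18 samples in the remaining 8 genes. In these genes and in Ifi207, COM-4 and COM-5 lay between COM-6 and COM-1 to COM-3, and only in Aim2 did they not. The share of the range was taken on FPKM. On log2(FPKM + 1), Ifi207 was at 7.455 in COM-6, 6.123 in COM-4 and 4.902 in COM-2, a smaller gap relative to the range.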

How the results depend on the processing

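Over 720 alternative values of the 30 fold changes of the family, 669 kept direction and side of the threshold, 1 lost its call (Mndal, COM minus NC, sample weights, 0.92), 25 gained one and 25 turned. For COM minus NC, Aim2 turned to -0.059 without COM-4 to COM-6 and to -0.054 with sample weights and ranged from -0.021 (without COM-6) to 0.198 with single samples left out, and Ifi207 to -0.18 with sample weights. For COM+Met minus NC, Aim2 turned to 0.19 with median-of-ratios and 0.11 with quantile scaling. For COM+Met minus COM, leaving out COM-1 to COM-3 gave Ifi203 -0.73, Ifi204 -0.89, Ifi205 -1.02, Ifi206 -1.51, Ifi207 -0.73, Ifi209 -1.04, Ifi211 -0.84, Ifi213 -1.16 and Mndal -0.83, and leaving out single samples gave ranges that crossed 0 for Ifi204 (-0.10 to 0.43), Ifi206 (-0.14 to 0.74), Ifi207 (-0.085 to 0.43) and Ifi211 (-0.008 to 0.51). In that comparison the number of family genes called was 8 with sample weights, 8 without COM-4 to COM-6 and 4 without COM-1 to COM-3, and of the listed pathway genes 0 with all 18 samples in 1 fit, 5 with sample weights and 5 without COM-4 to COM-6, against 1. Over all genes it called 230, and 370 with a pseudocount of 0.1, 90 with 5, 719 with sample weights and 771 without COM-4 to COM-6. With a pseudocount of 5, calls went from 1926 to 980 for COM minus NC and from 2078 to 1117 for COM+Met minus NC. The replicate block called 1920, 202 and 2080 genes (COM minus NC, COM+Met minus COM, COM+Met minus NC) and 8, 0 and 8 of the family, so the block changed none of these family counts, and since same-numbered samples did not deviate together the numbers pair nothing. Where samples or genes were dropped the alternative itself sets the change, and otherwise the cause was not tested. Without depth, the precision of the values under 1 FPKM (Ifi206 and Ifi213 in NC) is unknown.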
